A study of Laccaria bicolor with 4 samples.

Results

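The annotation of Laccaria bicolor used for these libraries held 630 pairs of gene models that lie on the same strand of the same scaffold and share at least 1 bp. The pairs were found from the scaffold, strand, start and end of every model, and genes that also overlapped a model on the opposite strand were left out. They comprised 1166 genes, 5.04% of the 23125 genes in each table, of which 542 were on the plus and 624 on the minus strand. No expression value was used to choose them. Before genes with an opposite-strand overlap were left out, 853 pairs of 1548 genes met the rule.

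RNA was sequenced from mycelium of the wild-type strain S238N-H82, a basidiomycete that forms ectomycorrhiza with tree roots. All cultures came from a liquid medium collected after 8 weeks. Untreated mycelium (n = 2 libraries) was compared with mycelium kept for 2 days with 5 mM vitamin C (n = 2), and the series' own design text describes both libraries of a condition as biological replicates. By the paper's methods only the longer RNA was kept, by column, both before and after ribosomal RNA was removed. Strand-specific libraries were then prepared. How far the loss of short RNA lowered the shortest models was not tested. The aligned bases came to between 4.20 and 5.65 Gb per library, and the median coverage of expressed genes to between 39.1 and 57.5. Levels are given as TPM (a gene's share of the library's transcripts, corrected for length, on a scale that sums to 1000000), in the order untreated replicates 1 and 2, then vitamin C replicates 1 and 2. The tables give no gene names, so models are named by position in the V2 assembly (LG, linkage group), and markers of mycelium could not be looked up.

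In compact fungal genomes neighbouring genes often lie so close that their untranslated ends meet or overlap. A strand-specific library separates the reads of genes that face each other, but not those of genes on the same strand. Within a stretch that lies in exons of 2 same-strand models, a read without a distinguishing splice junction fits either, and the quantification has to divide such reads between the models. An annotation can also hold a nested model inside an intron of its host, or hold 2 predictions for what is 1 transcription unit. The positions of exons were not used here, so an overlap below is one of whole models, introns included.

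Of the 630 pairs, 225 (35.7%) were nested, with one model wholly inside the other. A further 398 (63.2%) overlapped in part, and 7 had the same start and end. The shared stretch had a median of 278 bp, with a median of 640 bp (range 123 to 4544) in nested and 104 bp (range 1 to 5818) in partial pairs. It was under 10 bp in 53 pairs and at least 500 bp in 230. Nested pairs joined a short model to a long one. Over the 225 pairs, the inner model had a median length of 640 bp and the outer one of 2644 bp. These were 217 distinct inner and 204 distinct outer models. The inner model covered a median of 27.8% of the outer one. In partial pairs the shared stretch took up a median of 18.1% of the shorter model. The inner model ended at the 3′ end of the outer one in 41 nested pairs and began at its 5′ end in 14, while 170 shared neither end. Most pairs stood alone. Linked by shared members, the pairs formed 548 groups, 488 of them of 2 genes and 55 of 3, and members lay on 30 of the 54 scaffolds.

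The members were expressed more often than genes without any overlapping model. In the 4 libraries between 78.9% and 79.8% of members exceeded 0.05 TPM, against 59.9% to 60.3% of the 19659 genes that overlapped no other. The median member had 4.52, 5.25, 4.51 and 4.06 TPM, and the median gene without overlap 1.82, 2.11, 1.79 and 1.63 TPM. In total 155 members (13.3%) were listed at 0 in all 4 libraries, against 7233 (36.8%) of the genes without overlap and 152 of the 2145 genes (7.09%) that overlapped an opposite-strand model. This order held in every library, and genes are not replicates, so the shares are given without a test. Median model lengths were similar, 1092.5 bp for members and 1158 bp for genes without overlap.

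The lower share at 0 was seen in every length class. Among models under 300 bp, 19.5% of members and 60.6% of genes without overlap were listed at 0 in all 4 libraries. From 300 to under 600 bp the shares were 24.1% and 53.3%, and from 600 to under 1200 bp 12.8% and 38.5%. From 2400 bp they were 5.86% and 27.6%. Inner models showed a like rise into the second class, and no steady decline after it. Below 2400 bp each class held 39 to 65 inner models. Their shares were 16.0% under 300 bp, 22.8% from 300 to under 600 bp, 13.8% from 600 to under 1200 bp and 17.9% from 1200 to under 2400 bp, and 3 of the 6 longest were at 0.

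**Figure D1:**
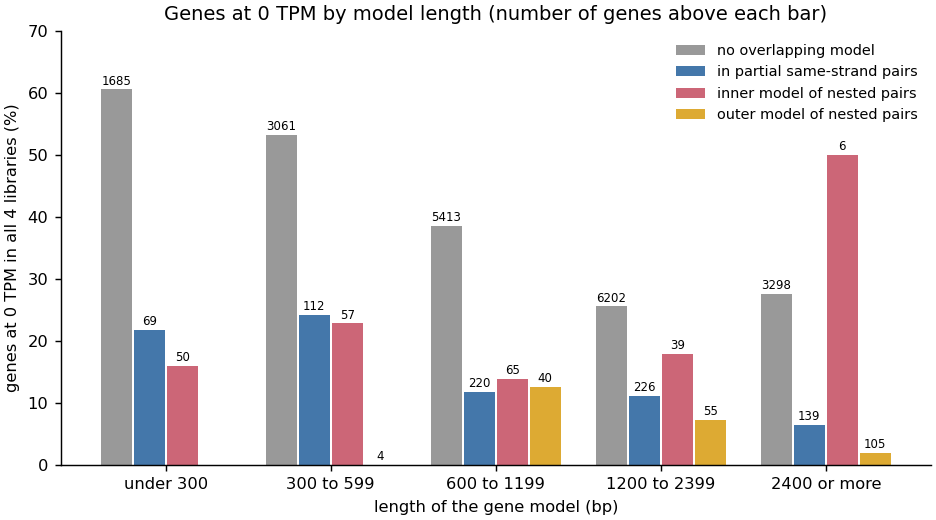
Percent of genes at 0 TPM in all 4 libraries (y axis) by class of model length in bp (x axis), for inner and outer models of nested pairs, members of partial pairs and genes without any overlap, with the number of genes above each bar. Genes without overlap run from 60.6% in the shortest class to 27.6% in the longest, above the partial members in each class.

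Most silent members lay beside silent partners, and among partial pairs this was less frequent the longer the overlap. Both partners were listed at 0 in all 4 libraries in 56 of the 630 pairs (8.89%), exactly one in 51 (8.10%), and neither in 523 (83.0%). Of the 155 silent members, 107 had only silent partners. Among partial pairs the share with both at 0 was 30.2% at an overlap of 1 to 9 bp and 16.5% at 10 to 49 bp. It was then 7.08% at 50 to 199 bp, 5.36% at 200 to 499 bp and 1.10% at 500 bp or more. Long overlaps need long models, and zeros among members of partial pairs also fell with model length. They made up 24.1% from 300 to under 600 bp and 6.47% from 2400 bp. The trend with overlap was not separated from model length. Directly neighbouring same-strand genes that overlapped nothing (9146 pairs) gave 33.4% with both and 13.8% with one at 0. Among these neighbours pairs with both at 0 also outnumbered those with one (3059 and 1262), by more than among overlapping pairs (56 and 51). Neighbours 0 to 49 bp apart (411 pairs) gave 40.4% and 3.65%, so partial pairs with the shortest overlaps (30.2% and 5.66%) lay nearer to these close neighbours than to pairs with long overlaps. The silent partner was nearly always the shorter one, in 48 of the 51 pairs with one partner at 0 (94.1%), against 785 of 1262 such neighbouring pairs (62.2%).

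**Figure D2:**
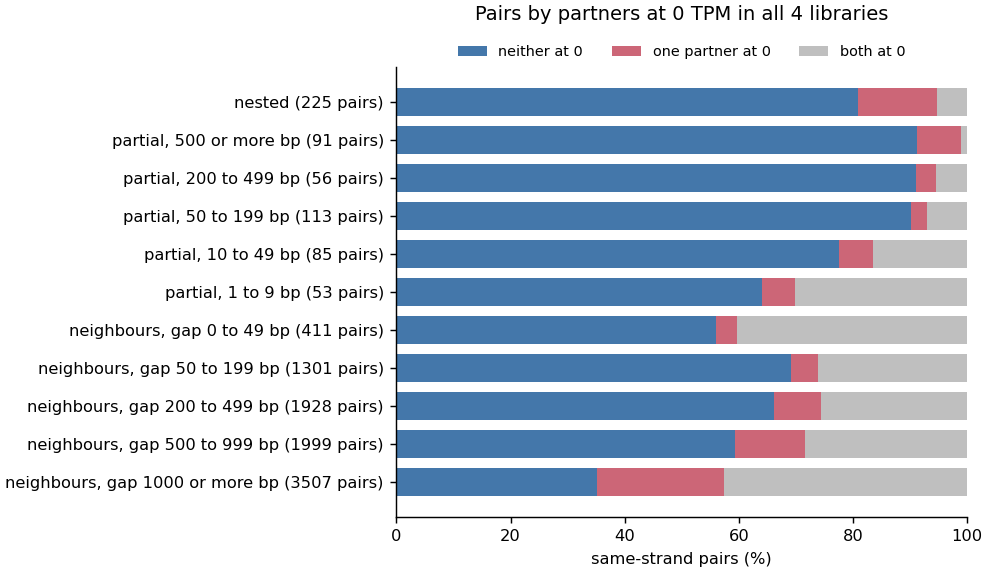
Share of same-strand pairs (percent, x axis) with neither partner, one partner or both at 0 TPM in all 4 libraries, for nested pairs, partial pairs by length of overlap and neighbours by the gap between them (y axis, with the number of pairs). The share with both at 0 falls from 30.2% to 1.10% of partial pairs as the overlap lengthens.

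The shortest overlaps and the closest neighbours illustrate the threshold of the rule. A 1-bp overlap joined LG1 models 8869206 to 8870253 and 8867812 to 8869206, which were both listed at 0 throughout. On LG2 the models at 991739 to 994087 (18.5, 24.3, 24.5 and 16.2 TPM) and 991338 to 991739 (11.6, 16.4, 22.6 and 10.8 TPM) also shared 1 bp. On LG5 the model at 600816 to 601199 was listed at 0 and its partner at 599344 to 600816, again joined by 1 bp, had 1.07, 1.10, 1.42 and 0.567 TPM. These are 3 of the 7 pairs that share 1 bp, of which 4 had both partners at 0 in all 4 libraries, 1 had one and 2 had neither. Just outside the rule, the abutting LG1 models 1556553 to 1556978 and 1556979 to 1557131 were all at 0, as were those at 6300423 to 6301227 and 6301228 to 6301731. A further abutting LG1 model, at 10064739 to 10065471, had at most 0.107 TPM beside a neighbour at 10065472 to 10073249 with 23.2, 44.4, 47.4 and 31.4 TPM.

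Within nested pairs the inner model was nearly always the lower one. Its median level over the 225 pairs was 0.178, 0.125, 0.119 and 0.114 TPM, and that of the outer model 17.0, 20.1, 21.2 and 15.7 TPM. The inner model was lower in all 4 libraries in 179 pairs and higher in all 4 in 18. The order was mixed in 16, and in 12 both were at 0. Inner models were listed at 0 throughout in 43 pairs (19.1%), and outer models in 12 (5.33%). In the 199 pairs whose outer model reached a mean of 1 TPM, 26 of them with the inner model at 0 throughout, the inner level had a median of 1.97% of the outer (quartiles 0.114% and 14.6%). It was under 1% in 86 of these pairs and over 100% in 21. An inner model above 0.05 TPM was found in 142 (71.4%). Shorter models were the lower ones less often in other pairs. The shorter model was the higher one in 25 of 213 nested pairs with unequal means (11.7%), in 106 of 356 partial pairs (29.8%) and in 2807 of 6081 neighbouring pairs (46.2%). These kinds of pairs were not matched for the difference in length between partners. Among members the median level was 0.240 TPM under 300 bp and 18.3 TPM from 2400 bp.

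**Figure D3:**
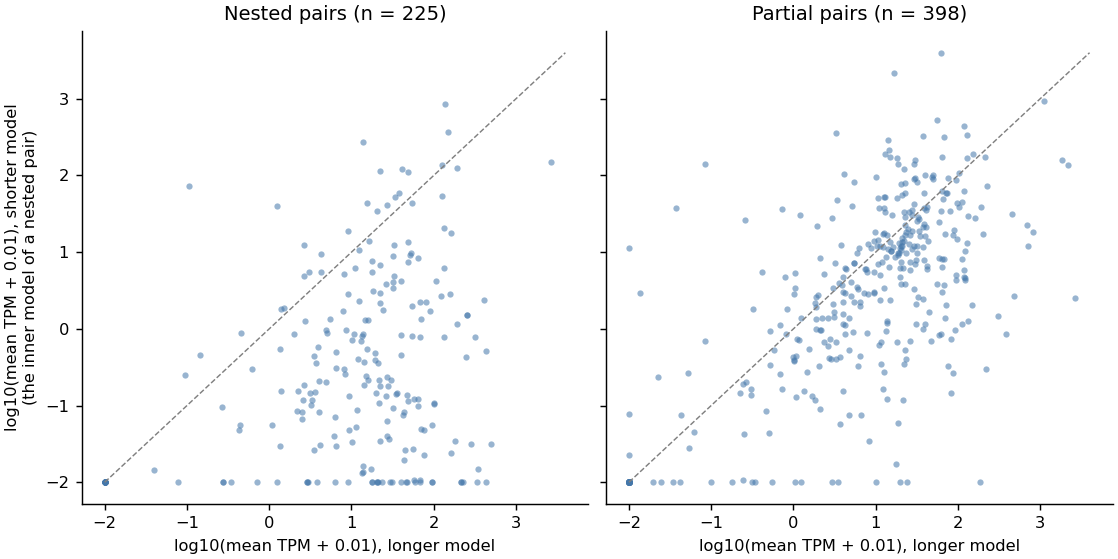
Mean TPM over the 4 libraries of the shorter (y axis) and the longer partner (x axis) of each pair, as log10(mean TPM + 0.01), for nested and partial pairs. Nested pairs lie mostly below the line of equal levels, where the inner model was lower in all 4 libraries in 179 of 225 pairs.

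The place of the inner model along its host went with how often it was silent. Where its midpoint lay in the first of 3 equal parts of the host, counted from the 5′ end, 20 of 60 inner models (33.3%) were at 0 in all 4 libraries. In the middle part 7 of 58 (12.1%) were at 0, and in the last part, at the 3′ end, 16 of 107 (15.0%). Inner models exceeded their hosts in 10, 5 and 10 pairs of these parts. The last part held more inner models than either of the others. In 12 of the 43 pairs with a silent inner model the host was also at 0 in all 4 libraries. The shares by part were not separated by the state of the host.

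The few strongly expressed inner models included some that exceeded their hosts many times over. On LG1 the inner model at 11059019 to 11059614 had 1028, 799, 718 and 862 TPM and its host at 11055475 to 11059614, which shared one end with it, 127, 133, 150 and 132 TPM. On LG9 the inner model at 745887 to 747027 had 269, 340, 248 and 248 TPM within a host at 743931 to 747348 with 10.2, 18.4, 15.3 and 10.5 TPM. On LG4 the inner model at 752870 to 753673 had 298, 426, 425 and 318 TPM and its host at 751188 to 753673 had 165, 164, 135 and 136 TPM. In these 3 pairs every inner value lay above every host value. Scaffold 29 showed the opposite order, with 127, 152, 129 and 193 TPM for the inner model at 67545 to 68129 and 2480, 3246, 2220 and 2733 TPM for its host at 62108 to 68184. Among the highest ratios of inner to outer level were also pairs whose host was nearly silent. The LG5 inner model at 2693586 to 2694362 had 66.2, 67.5, 87.8 and 74.1 TPM, and its host at 2693549 to 2695489 was listed at 0 in 3 libraries and had 0.386 TPM in vitamin C replicate 2. The LG4 inner model at 3742748 to 3744466 had 37.6, 36.8, 42.0 and 41.7 TPM, and its host at 3742649 to 3744466, only slightly longer, was at 0, 1.39, 1.93 and 1.59 TPM.

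Pairs with exactly one silent partner joined a silent inner model to an expressed host, or a silent model to a weak partial partner. All 31 nested pairs of this class had the inner model at 0. The expressed partner had a median of 20.4 TPM in nested and of 0.437 TPM in the 20 partial pairs, and it exceeded 0.05 TPM in all 4 libraries in 41 of the 51. It reached 10 TPM in 19 nested and 5 partial pairs. The silent inner models of these pairs had a median length of 745 bp.

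The strongest of these one-sided pairs set a silent model beside an abundant one. On scaffold 11 the inner model at 1007371 to 1008268 was listed at 0, and its host at 1007337 to 1008863 had 346, 265, 377 and 354 TPM. The LG4 inner model at 970783 to 972410 was at 0 within a host at 967738 to 972415 with 204, 204, 258 and 234 TPM. On LG1 the host at 2095543 to 2104886 had 180, 178, 265 and 231 TPM and held a pair of silent models, at 2095968 to 2099535 and 2099759 to 2102138. These 3 hosts were expressed at a like level in every library while the models inside them were listed at 0. A partial pair on LG7, with 275 bp shared, also held a model at 0, at 1247211 to 1247866. Its partner at 1245251 to 1247485 varied more, with 205, 128, 159 and 248 TPM. A value of exactly 0 can also be a failed estimate, and the files do not separate that from no reads.

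Partial pairs were more even than nested ones. The upstream model, taken along the direction of transcription, had a median of 7.00, 8.30, 8.41 and 7.19 TPM and the downstream model of 4.79, 6.38, 5.29 and 4.38 TPM. The upstream model was the higher one in 202, 205, 196 and 200 pairs and the downstream one in 147, 147, 155 and 149. In 13 pairs only the upstream model was at 0 in all 4 libraries, and in 7 only the downstream one. Where both partners reached a mean of 1 TPM, the higher was a median of 2.59 times the lower in 242 partial pairs, 5.27 times in 70 nested and 3.42 times in 3792 neighbouring pairs, but 2.25 times in the 194 neighbours 0 to 49 bp apart. Over the same pairs the partners' mean levels had a Spearman correlation of 0.31 in partial, 0.14 in nested and 0.19 in neighbouring pairs, and of 0.52 in the 194 neighbouring pairs 0 to 49 bp apart. Partners share libraries, depth and chromosomal position, and the correlations are descriptions.

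Of the 5 pairs with the highest lower partner, all but a nested one overlapped by 47 bp or less. On scaffold 33 the models at 12925 to 13191 (961, 962, 660 and 1125 TPM) and 10928 to 12925 (994, 1301, 919 and 1259 TPM) share 1 bp. On LG2 those at 3504708 to 3505536 (137, 206, 197 and 157 TPM) and 3503065 to 3504733 (176, 255, 228 and 183 TPM) share 26 bp. On LG3 the models at 1731516 to 1731727 (236, 188, 174 and 175 TPM) and 1730447 to 1731551 (188, 159, 126 and 137 TPM) share 36 bp. In each of these 3 pairs the partners were within a factor of 2 of each other in every library. On LG1 the upstream and downstream partners were far apart, with 1690, 1828, 1924 and 1934 TPM at 4606903 to 4610044 and 170, 151, 158 and 156 TPM at 4606063 to 4606949, over an overlap of 47 bp. The scaffold 29 pair given above was the only nested one among the 5 pairs with the highest lower partner. Below these 5, overlaps could be long. LG1 pairs with a lower partner at a mean of 136 and 131 TPM shared 387 and 598 bp.

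In the 3 longest overlaps one partner held most or all of the listed signal, which was near 0 in one of them. Long overlaps were not all so uneven. In the 57 partial pairs sharing at least 500 bp with both partners at 1 TPM, the higher was a median of 3.39 times the lower. The LG1 models at 2237841 to 2245424 and 2239607 to 2245882 share 5818 bp, with 29.3, 35.4, 36.3 and 29.5 TPM for the first and 0, 3.83, 3.61 and 3.07 TPM for the second. On LG5 the host at 1535007 to 1545976 had at most 0.362 TPM and the inner model at 1535384 to 1539927 (4544 bp) was listed at 0. On LG2 a pair of models with the same bounds, 2222270 to 2225942, had 63.7, 59.9, 90.9 and 72.1 TPM for one and 0.258, 8.18, 0.115 and 0.627 TPM for the other. Of the 7 pairs with identical bounds, 2 were at 0 throughout, and the others did not divide their signal alike. The LG1 pair at 6463213 to 6463969 was even, with 1.69, 2.40, 1.66 and 1.40 TPM beside 1.77, 2.45, 1.71 and 1.45 TPM. Near even was the scaffold 14 pair at 388203 to 390068, with 8.82, 14.8, 8.44 and 6.16 TPM beside 13.6, 13.3, 9.26 and 8.61 TPM. The LG3 pair at 5732809 to 5733508 had a value in vitamin C replicate 1 only for one model, and 0.762, 1.88, 0 and 0.537 TPM for the other, so no library had a value for both.

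Short models along a long one made up the larger groups of 6 genes. On scaffold 12, 6 genes lay between 828552 and 836030, of which the model that spans nearly all of it had 17.7, 26.9, 25.4 and 19.04 TPM and the next highest, at 832752 to 834703, 2.00, 0.894, 3.94 and 5.00 TPM. Another 6 lay between 104693 and 110565 on scaffold 14, with a host at 105393 to 109051 at 39.8, 38.9, 22.9 and 24.8 TPM and a model joined to its 3′ end at 31.2, 28.7, 19.3 and 22.5 TPM. The host's inner model at 106728 to 108217 had 8.32, 5.68, 11.2 and 10.9 TPM, higher in both vitamin C libraries while the host was lower in both. Neither passed the limma test described next, with an adjusted p of 0.39 for the inner model and 0.27 for the host. The LG1 group of 5 held the pair with the longest overlap, whose models of 7584 and 6276 bp are both long.

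Vitamin C was compared with no treatment gene by gene, with limma on log2(TPM + 1) and Benjamini-Hochberg adjustment over the 15107 genes with a mean above 0.05 TPM. Of the 1166 members, 957 passed this filter. One was higher, against 0.0463% of all genes tested, and 2 were lower, also against 0.0463%. Both directions together gave 0.0927% of all genes tested. At an unadjusted p under 0.05, 47 members were higher (4.91%, all genes 4.98%) and 72 lower (7.52%, all genes 8.13%). The median change of members was -0.01 on the log2(TPM + 1) scale and that of all genes tested -0.02. With any single library left out, none of the 3 members and none of the 15107 genes tested passed the limma threshold. Such a fit has 1 residual degree of freedom and takes the lone library to vary like those of the other condition. Over these 4 fits 19 to 52 members were higher (1.99% to 5.43%, all genes 1.09% to 4.95%) and 33 to 79 lower (3.45% to 8.25%, all genes 3.13% to 9.65%) at an unadjusted p under 0.05. The changes of the 3 members on the log2(TPM + 1) scale ranged from 3.09 to 3.27 for gene_22285, from -4.62 to -4.53 for gene_11049 and from -2.50 to -1.97 for gene_21743.

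The member that rose, gene_22285 (scaffold 11, minus strand, 1432062 to 1433129), was listed at 0 in both untreated libraries and had 7.53 and 8.66 TPM with vitamin C (change 3.18, SE 0.22, adjusted p = 0.004 by limma). Its upstream partner at 1432704 to 1435239 shares 426 bp with it and had 5.34, 6.78, 4.33 and 3.76 TPM (adjusted p = 0.46). By the listed values the pair thus went from one model above 0 to both. How the reads of the shared 426 bp were divided between the models was not tested. The first that fell, gene_11049 (LG3, minus strand, 6851882 to 6852155), had 23.6 and 22.2 TPM untreated and 0 with vitamin C in either library (change -4.58, SE 0.24, adjusted p = 0.0013 by limma). It shares 4 bp with the model at 6852152 to 6852555, which was at 0 throughout. The other, gene_21743 (scaffold 11, minus strand, 351432 to 353061), had 2.94 and 4.70 TPM untreated and 0.0104 and 0 TPM with vitamin C (change -2.24, SE 0.24, adjusted p = 0.035 by limma). Its partner at 351270 to 352191 shares 760 bp with it and had 16.2, 17.0, 30.5 and 24.0 TPM (change 0.67, adjusted p = 0.31). All 3 genes were at or near 0 in one condition. The fitted changes of such genes depend on the pseudocount and are not folds.

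A complete switch between conditions was rare. Silent throughout one condition, with at least 1 TPM in each library of the other, were 3 members (0.257%). The share was 0.0692% of all genes (16) and 0.186% of genes that overlapped an opposite-strand model (4). The 3 members were gene_22285, gene_11049 and a scaffold 14 model at 178464 to 179367. That model had 0 and 0 TPM untreated and 5.77 and 2.46 TPM with vitamin C (adjusted p = 0.09 by limma). The last lay almost wholly inside the span of an abundant partner at 178486 to 180319 with 163, 163, 133 and 142 TPM, over a shared 882 bp.

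The balance within pairs was compared by the difference of the upstream and the downstream partner on the log2(TPM + 1) scale, tested with limma over 6222 same-strand pairs, both overlapping and neighbouring. Among the 475 overlapping pairs tested, 2 passed, against 0.193% of all pairs (12). At an unadjusted p under 0.05 there were 63 (13.3%), against 14.8% of all pairs. Both were scaffold 11 pairs described above. For the pair of gene_22285 the upstream minus downstream difference fell by 3.66 with vitamin C (SE 0.24, adjusted p = 0.0034 by limma). For that of gene_21743, which is the upstream partner, it fell by 2.91 (SE 0.27, adjusted p = 0.021 by limma). In each pair only one partner passed the test by gene. With single libraries left out the count was 16 without untreated replicate 1, 15 without untreated replicate 2, 6 without vitamin C replicate 1 and 3 without vitamin C replicate 2, and both pairs passed each time. Of all pairs 1.56%, 0.739%, 0.354% and 0.193% passed in these fits, which have 1 residual degree of freedom.

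The nested LG1 pair with the next lowest adjusted p was picked out after its values were seen. Its host at 4804459 to 4808098 had 23.8, 25.3, 18.9 and 14.2 TPM, and its inner model at 4804459 to 4805833 had 16.7, 17.0, 44.3 and 58.8 TPM. The order of the 2 models turned between conditions, and neither the balance (adjusted p = 0.087) nor the inner model alone (adjusted p = 0.077) passed with limma.

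**Figure D4:**
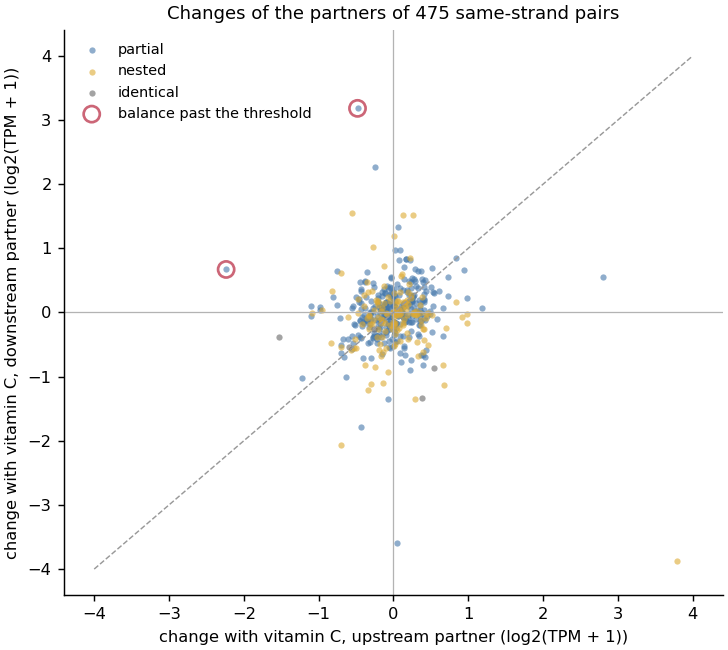
Change with vitamin C on the log2(TPM + 1) scale of the upstream (x axis) and downstream partner (y axis) of the 475 overlapping pairs with a mean above 0.05 TPM in both, coloured by kind of pair, with a dashed line of equal change. The 2 circled pairs passed the balance test, with differences that fell by 3.66 and 2.91.

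Some members were at 0 in one library and at 5 TPM or more in another, including between libraries of 1 condition. This held for 11 members (0.943%), against 0.229% of all genes (53) and 25 of the 8793 genes without overlap that reached 5 TPM in any library (0.284%). Of the 619 members that reached it, they made up 1.78%, and 4 of the 45 such inner models were among them (8.89%). Genes that overlapped an opposite-strand model gave 0.653% (14), and 0.885% of those that reached 5 TPM. Members in partial pairs gave 0.653% (5) and 1.14%, so much of the excess was shared with other overlapping models. The 11 members lay in 10 pairs and were at 0 in 4, 8, 5 and 5 cases in the 4 libraries. Untreated replicate 2 held the most.

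The clearest case was a mirror image within the untreated condition. On LG7 the host at 114361 to 114869 had 156, 0, 207 and 144 TPM, and its inner model at 114659 to 114865 had 0, 213, 0 and 0 TPM. In each library the whole signal was listed under one model, in untreated replicate 2 under the inner one. The sum of both was 156, 213, 207 and 144 TPM and had no gap. By gene the host's change with vitamin C was 3.79 (SE 1.93, adjusted p = 0.44 by limma), with the low library on one side of the comparison.

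In other nested pairs the inner model dropped to 0 in untreated replicate 2 and the host did not drop. On LG3 the inner model at 6844873 to 6845095 had 6.78, 0, 7.50 and 6.60 TPM and the host at 6843487 to 6845098 7.08, 7.50, 10.2 and 7.81 TPM. On LG10 the inner model at 3521896 to 3523471 had 7.07, 0, 9.22 and 5.55 TPM and the host at 3515779 to 3523874 13.0, 20.9, 22.2 and 14.8 TPM. Their sums in untreated replicates 1 and 2 were 13.9 and 7.50 TPM on LG3 and 20.04 and 20.9 TPM on LG10, so only the LG10 sum stayed level. The scaffold 14 inner model at 108623 to 108944 had 16.5 TPM in untreated replicate 1 and 0 in the other libraries, in the host at 39.8, 38.9, 22.9 and 24.8 TPM named above.

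Partial and identical pairs held the remaining cases, beside the 3 members given above that were silent in one condition. On LG10 the model at 3178830 to 3180449 had 10.8 TPM in untreated replicate 1 and 0 elsewhere, beside a partner at 3180345 to 3180599 (105 bp shared) with 0.439, 0.810, 0.207 and 0.193 TPM. On LG1 the model at 1757166 to 1757725 had 47.6 TPM in vitamin C replicate 2 and 0 elsewhere, and its partner at 1754544 to 1757182 (17 bp shared) had 23.1, 23.7, 40.7 and 29.8 TPM. In both cases the partner was lower in that library than in the other replicate of the condition, but within the range of its other libraries. On scaffold 11 one of the identical models at 975388 to 976358 had 3.87, 5.59, 2.84 and 0 TPM and the other 4.54, 6.58, 2.88 and 5.33 TPM, so the pair was even in 3 libraries and one-sided in the last.

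**Figure D5:**
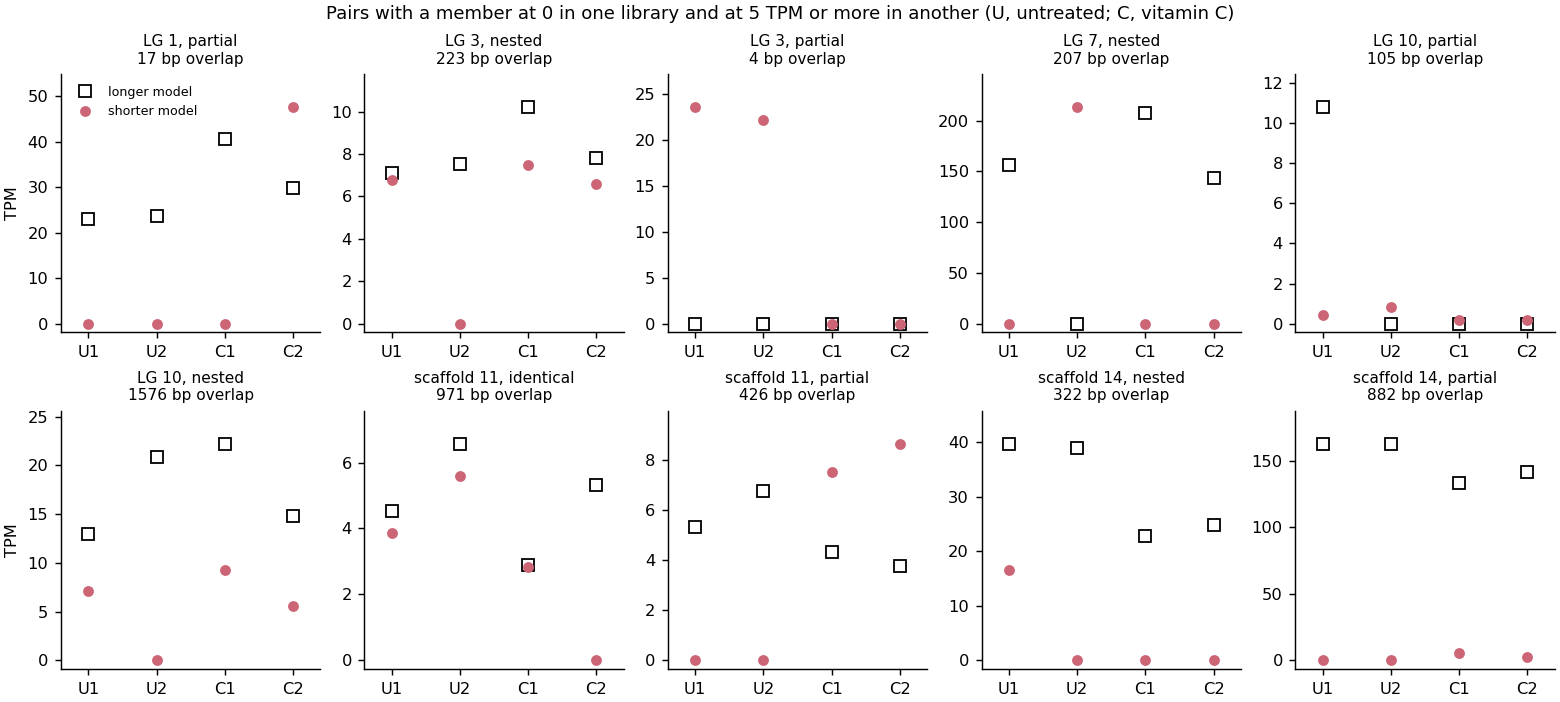
TPM of both partners (y axis, 1 panel a pair) in each library (x axis) for the pairs with a member at 0 in one library and at 5 TPM or more in another. In the LG7 pair the inner model has 213 TPM in untreated replicate 2, where its host is at 0.

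Inner models agreed less between untreated replicates than outer models, partial members and genes without overlap, over all with a mean of 1 TPM or more. The untreated replicates differed by over 1 log2 unit in 11 of 69 inner models (15.9%), of which 5 were lower in replicate 2 and 6 in replicate 1. The share was 2.78% of outer models, 2.76% of members in partial pairs and 1.83% of genes without overlap. The 11 inner models include the 4 described above that were at 0 in one library and at 5 TPM or more in another, so they are not separate evidence. Between the vitamin C replicates the share was 2.90% of inner models (2 of 69). It was 2.22% of outer models, 1.66% of members in partial pairs and 0.798% of genes without overlap. Inner models thus stood little above outer ones there. By level, the untreated replicates differed this much in 6 of 30 inner models between 1 and 5 TPM (3.44% of genes without overlap), in 4 of 20 between 5 and 20 TPM (2.17%) and in 1 of 10 between 20 and 100 TPM (1.04%). From 100 TPM it was 0 of 9 inner models and 0.738% of genes without overlap.

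Differences between replicates were also compared across partners. Over 242 partial pairs the differences between untreated replicates had a Pearson correlation of 0.37 and a Spearman correlation of 0.46 between partners, against 0.18 and 0.19 over 3792 neighbouring pairs and 0.24 and 0.29 over the 194 neighbours 0 to 49 bp apart. Between the vitamin C replicates the values were 0.18 and 0.30 in partial pairs, 0.15 and 0.17 in all neighbours and 0.28 and 0.30 in the close neighbours, so partial pairs did not stand above close neighbours there. In nested pairs the untreated values were -0.56 and 0.31 over 70 pairs and 0.13 and 0.37 without the LG7 pair, so the sign of the Pearson value rested on that pair. For the change with vitamin C the Spearman correlation was 0.25 in partial, 0.04 in nested and 0.13 in neighbouring pairs, and 0.26 in neighbours 0 to 49 bp apart. The Pearson correlation was 0.11 in partial and 0.14 in neighbouring pairs, and 0.25 in the close neighbours. In nested pairs it was -0.42, and 0.06 without the LG7 pair. For this change partial pairs stood above all neighbours by the Spearman but not the Pearson correlation. They stood above close neighbours by neither.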

How the data were processed

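The authors trimmed and mapped the reads to the L. bicolor V2 genome with HISAT2, removed duplicates with SAMtools and quantified annotated genes with StringTie, 1 table per library. FastQC is also listed in the submitters' processing notes. Of StringTie's settings, that for strand was not given in the sources used here. Values of TPM, as deposited, sum to 1000000 per library and were used throughout. The deposited FPKM values served as an alternative, and the coverage the authors deposited, a signal of mean read depth over a gene, gave with FPKM the aligned bases. No read counts were used, so no counting interval is given and a count model could not be used, although the paper's methods name DESeq2.

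Overlaps were found from inclusive coordinates, shared by the 4 tables, with Python 3.11.15, numpy 2.4.6, pandas 2.3.3, scipy 1.17.1 and networkx 3.6.1, and figures drawn with matplotlib 3.10.9. Conditions (n = 2 each) were taken from the labels and compared in R 4.3.3 by limma 3.58.1 (trended prior variance, two-sided) on log2(TPM + 1), which understates changes of low genes. Genes needed a mean above 0.05 TPM, and pairs that level in both partners. Adjusted p-values are over all genes or all same-strand pairs tested, with a threshold of 0.05. Overlap finder and tests were tested on simulated data. A nested pair was ordered by the 5′ start of its models.

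The members, lists and rules were chosen with earlier results of these data known. Pairs were named by rule: those past a test, the 5 with the highest lower partner, the 5 with a silent and a highest other partner, the 4 nested ones with the highest inner level and the 4 with the highest inner to outer ratio, the 3 longest overlaps and largest groups, members that switched between 0 and at least 5 TPM or between conditions, and the 3 shortest overlaps and gaps. Alternatives were other pseudocounts, filters, scalings, overlap minimums, a block by replicate number and each library left out. Identifiers matched 0 genes of the RefSeq table, so no gene names or sequences are given.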

Additional observations from a re-analysis of the deposited data

How the results depend on the processing

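With 2 libraries per condition, depth known only as aligned bases and exon positions not used, small changes and low inner models could not be measured well. The 630 pairs became 577 with an overlap of at least 10 bp, 492 with 50 bp, and 853 with genes that overlap an opposite-strand model kept, which also raised the nested pairs from 225 to 345. Inner models at 0 in nested pairs made up 28.9% when TPM up to 0.05 counted as 0 (19.1% as reported), and 19.6% to 20.4% with a library left out. Pairs with one silent partner numbered 74 at 0.05 TPM and 53 to 56 with a library left out.

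The members higher with vitamin C (1) numbered 2 with a pseudocount of 0.1, 3 without the filter and 2 with a mean of at least 1 TPM. Those lower (2) numbered 1 by limma without a trend and 0 by limma without the filter, where 70 were lower at an unadjusted p under 0.05. With a library left out both counts ranged from 0 to 0. The balance count of 2 was 0 without the filter, with 85 pairs at an unadjusted p under 0.05, and 3 to 16 with a library left out. FPKM and quantile normalization changed neither gene count, and no direction of the 3 genes or 2 pairs named turned under any alternative run. The cause of these differences was not tested.

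The replicate numbers are tied to nothing in the labels, and the replicate differences of the conditions had a correlation of -0.26 over 15107 genes. With replicate number as a block, 7 members were higher (0.731%, all genes 0.285%) and 15 lower (1.57%, all genes 0.563%), and 2 pairs passed the balance test (0.421%, all pairs 0.193%). A crossed pairing, chosen after seeing the data, gave 7, 12 and 2 (0.662%, 1.49% and 0.161% of all genes or pairs). The nested partner correlation of -0.56 was 0.13 without the LG7 pair, also chosen after seeing the data.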
